A study of Mus musculus with 9 samples.

Results

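The genes described here code for 42 nucleolar proteins of ribosome biogenesis, chosen by name from a list of proteins that make, modify or assemble ribosomal RNA (rRNA). A member was measured where at least 1 probe set of the array, a group of short probes for 1 transcript, named that gene and no other. This gave 39 of the 42 members, with 73 of the array's 22690 probe sets, among 12384 genes with such a probe set. Dkc1 (the pseudouridine synthase of box H/ACA particles), Npm3 (a nucleophosmin relative) and Mrto4 (a 60S assembly factor) had none and are not described further.

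The study followed mouse primary megakaryocytes, the marrow cells that shed platelets, through 4 stages labelled MKP, MK3, MK4 and MK6. There were 9 single-colour arrays, 2 each of MKP, MK3 and MK4 and 3 of MK6. All 4 stages were grown from bone marrow or fetal liver cells in thrombopoietin. They were sorted by flow cytometry for high surface CD41 and for forward scatter, a measure of cell size. The days given for taking cells are 3, 4 and 6. The numbers in MK3, MK4 and MK6 match those days, and the day of MKP is not given in the sources used here, nor are the genotype, strain and age of the mice or which of the 2 tissues each array used. The sorted populations were enriched for megakaryocytes and not pure, and the labels do not say whether replicates are separate cultures or animals, so a p-value here reflects the scatter among these 9 arrays, which may be technical. MK6 replicate 1 is the array whose title carries no replicate number, and MK6 replicates 2 and 3 are those that the titles number first and second.

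Ribosomes are built in the nucleolus. RNA polymerase I copies the rRNA genes into a long precursor, small nucleolar ribonucleoprotein particles (snoRNPs) of the box C/D and box H/ACA classes guide methylation and pseudouridylation of that precursor, the small subunit processome folds and cuts the 18S part, and a separate series of factors assembles the 60S subunit. Megakaryocytes leave the ordinary cell cycle as they mature, copy their DNA without dividing, grow very large and finally release platelets, which have no nucleus.

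RefSeq promoter windows show the sequence around the start of members that fell between MKP and MK6, and where the E-box, a short motif, lies among the members. Each window ran from 250 bases before to 50 bases after an annotated start in the GRCm38.p6 build, 300 bases in all, and 33 of the 39 measured members had at least 1. Bop1, Fbl, Gnl2, Npm1, Rrp12 and Rrs1 had no entry. The windows of Rrp9 (chr9:106477059-106477358, plus strand), Nolc1 (chr19:46075597-46075896, plus strand), Ddx21 (chr10:62602249-62602548, minus strand) and Nop16 (chr13:54590025-54590324, minus strand) are shown because these are the called members with a window.
Rrp9: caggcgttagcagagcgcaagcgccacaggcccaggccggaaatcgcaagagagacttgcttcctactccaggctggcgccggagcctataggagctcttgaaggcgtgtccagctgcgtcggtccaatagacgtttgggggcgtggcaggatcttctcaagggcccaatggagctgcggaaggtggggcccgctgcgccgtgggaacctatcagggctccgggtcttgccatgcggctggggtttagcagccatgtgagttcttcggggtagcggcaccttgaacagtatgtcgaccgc
Nolc1: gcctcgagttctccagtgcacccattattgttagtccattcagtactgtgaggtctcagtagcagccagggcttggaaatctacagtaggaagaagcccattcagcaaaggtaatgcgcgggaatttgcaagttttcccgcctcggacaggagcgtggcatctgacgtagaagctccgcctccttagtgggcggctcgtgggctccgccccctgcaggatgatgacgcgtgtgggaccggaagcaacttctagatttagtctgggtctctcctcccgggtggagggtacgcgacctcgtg
Ddx21: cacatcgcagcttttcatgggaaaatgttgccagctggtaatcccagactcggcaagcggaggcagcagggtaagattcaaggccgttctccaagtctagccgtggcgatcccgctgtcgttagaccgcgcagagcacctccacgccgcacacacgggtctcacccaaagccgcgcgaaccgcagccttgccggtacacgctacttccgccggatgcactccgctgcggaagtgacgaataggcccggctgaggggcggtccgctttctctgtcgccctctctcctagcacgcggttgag
Nop16: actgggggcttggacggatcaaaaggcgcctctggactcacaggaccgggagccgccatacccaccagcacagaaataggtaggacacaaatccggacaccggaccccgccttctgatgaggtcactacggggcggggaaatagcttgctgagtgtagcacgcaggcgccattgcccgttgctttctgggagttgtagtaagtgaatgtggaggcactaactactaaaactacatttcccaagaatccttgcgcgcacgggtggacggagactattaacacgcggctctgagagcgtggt
The motif searched was the E-box CACGTG, which reads the same on both strands. Of the 33 members with a window, 5 (15.2%) held it, against 11.7% of the 7634 genes tested that had a window searched. Among all 27025 genes whose windows were searched the share was 8.09%. Not every chromosome was searched. None of the 4 windows printed above held it. The 5 members that did are shown with 10 bases on either side and the E-box in capitals.
Imp4: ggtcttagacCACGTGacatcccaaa
Nop2: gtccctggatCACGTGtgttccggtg
Pes1: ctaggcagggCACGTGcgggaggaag
Tsr1: acttggtgcaCACGTGgactgcagaa
Wdr43: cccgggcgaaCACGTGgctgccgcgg
These stretches lie at chr1:34439698-34439723 (Imp4), chr6:125131813-125131838 (Nop2), chr11:3963967-3963992 (Pes1), chr11:74898094-74898119 (Tsr1) and chr17:71616222-71616247 (Wdr43), all on the plus strand. The E-box lies before the annotated start in Imp4 and Nop2 and after it in Pes1, Tsr1 and Wdr43. None of these 5 genes passed the test between MKP and MK6, and their log2 differences ran from -0.93 in Nop2 to -0.27 in Tsr1. A match is a description of the letters and says nothing of which factor binds there.

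Before the members are described, differences among the MK6 arrays in RNA controls and signal have to be given. Beta-actin has control probe sets at both ends of its transcript, and their 3′/5′ signal ratio, which rises when RNA is broken or incompletely copied, ran from 0.957 to 1.09 on the 6 arrays of MKP, MK3 and MK4, and 1.49, 1.33 and 3.21 on MK6 replicates 1, 2 and 3. Deposited signals were lowest on MK6 replicates 1 and 3, with 2% trimmed means of 103 and 102 against 123 to 221 elsewhere. Megakaryocyte markers, a check of the label, rose in 2 of 10 genes between MKP and MK6. Itga2b, which codes for the CD41 of the sort, was 1 of the 2, with signals of 1301 and 979 at MKP and 3394, 3678 and 2856 at MK6, and Vwf (von Willebrand factor) was the other. The median of the 10 was 0.71, and Itgb3 (CD61), Ppbp and Clec1b had differences of -2.01, -0.66 and -0.55 that did not pass the test (adjusted p from 0.0568 to 0.587). Neutrophil markers were also bright in spite of the sort: 12 such genes summed to 39782 to 48864 at MKP, 35528 to 36737 at MK3, 25564 to 28300 at MK4 and 6719 to 29272 at MK6, and 7 of the 12 fell between MKP and MK6. Genes of DNA replication fell in 5 of 18 cases, with a median log2 difference of -1.33. The 11 monocyte and macrophage markers moved both ways: Cd68 and Ctss rose between MKP and MK6 and Itgam and Cybb fell, and their signals summed to 11925 to 14687 at MKP, 17292 to 34382 at MK3, 14619 to 20390 at MK4 and 13998 to 32382 at MK6. Of the erythroid list, read by the brightest probe set of each gene, Klf1, Epor and Tfrc were above the filter on all 9 arrays. Klf1 was dim, at 69.8 to 163, and Tfrc read 423 to 1331. Hba-a1 was above the filter on 2 arrays and Alas2 on 1, and Slc4a1 and Epb42 (red cell membrane) never were. None of the 5 tested genes of this list was called between MKP and MK6. Of the mast cell and basophil list, Mcpt8, Cpa3 and Ms4a2 were above the filter on all 9 arrays. Hdc was on 6 arrays, Fcer1a on 3 and Tpsb2 on 2, and Mcpt4 (mast cell protease) never was. Of the 6 tested genes of this list 1 was called, Hdc, which fell (-3.14, adjusted p = 0.00611). The difference was below 0 in 4 of the 6, and Fcer1a (1.34) and Tpsb2 (0.40) were above 0 without passing the test.

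Most ribosome biogenesis genes read lower in MK6 than in MKP, and a few of them passed the test. Of the 39 members, 5 fell (adjusted p below 0.05 by limma with Benjamini-Hochberg adjustment over 9394 genes) and none rose, where 2.94% of all genes tested fell and 2.76% rose. The 5 were Rrp9, Nolc1, Fbl, Ddx21 and Nop16, each from a different role group of the list. At an unadjusted p below 0.05, 18 members were lower (11.1% of all genes) and 0 were higher (12.7%). The difference was below 0 in 37 of 39 members (40.8% of all genes), with a median of -0.54 on the log2(signal + pseudocount) scale against 0.13 for all genes, and it reached at least 1 log2 unit down in 11 members (5.99%).

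Read array by array, every MK6 array lay below both MKP arrays for 27 of the 39 members (18.8% of all genes) and above both for 1, Gnl2 (24.5%). The calls rested on few arrays. Without MKP replicate 1 or without MKP replicate 2 there were 0 calls among the members, and 3 and 21 among all genes. Without MK6 replicate 3 only Fbl was called, without MK6 replicate 1 all but Ddx21 were, and without MK6 replicate 2 there were 12 calls. With both MK6 replicates 1 and 3 left out, a choice made after seeing the arrays, MK6 is a single array and its spread is assumed to be that of the other stages. Then 0 members were called, and the difference was still below 0 in 36 of 39 (50.4% of all genes) with a median of -0.46 against -0.0039 for all genes.

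**Figure D1:**
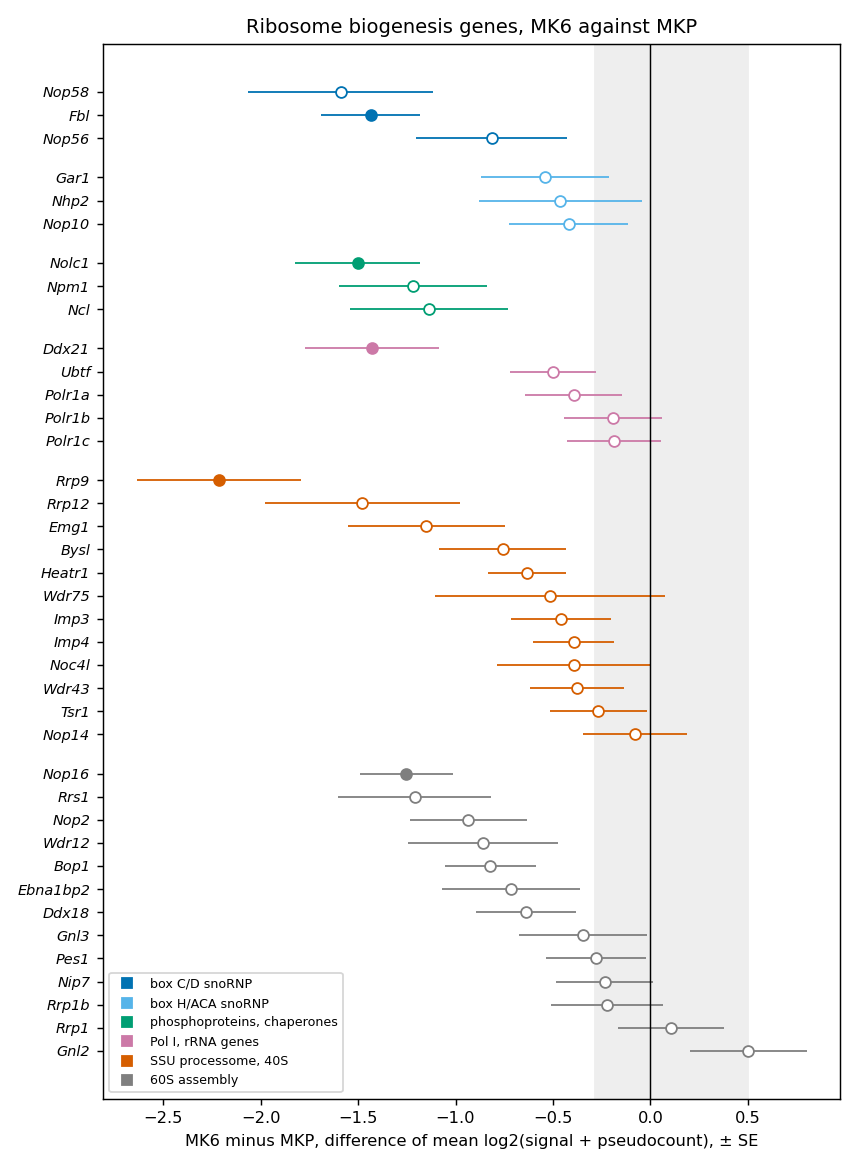
Difference in mean log2(signal + pseudocount) between MK6 (3 arrays) and MKP (2 arrays) for the 39 measured members, grouped by role, with bars for the standard error and filled points for an adjusted p below 0.05. The grey band is the middle 50% of all 9394 genes tested; 37 of the 39 points lie left of 0, from -2.22 for Rrp9 to 0.50 for Gnl2.

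The box C/D snoRNP genes had the most negative median of the 6 role groups, -1.44 over 3 genes. Fbl codes for fibrillarin, the methyltransferase of these particles. Its scaled signal was 1160 and 748 on the MKP arrays, 347 and 423 at MK3, 602 and 561 at MK4, and 272, 379 and 364 at MK6. The MKP arrays were the highest of the 9 and did not overlap with any other stage, and the MK6 arrays were below both MK4 arrays. Fbl was lower in MK6 by -1.44 ± 0.25 (log2, SE, n = 3 and 2; adjusted p = 0.0125), a 2.70-fold difference, and it was the 1 member with an adjusted p below 0.05 in limma's F test of any difference among the 4 stages (0.041; 2.79% of all genes). Unadjusted, 8 members were below 0.05 in that F test (17.1% of all genes).

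Nop58, a core protein that holds the box C/D guide RNA, read 674 and 722 at MKP, 277 and 438 at MK3, 588 and 275 at MK4, and 97.7, 345 and 311 at MK6. The MK6 arrays were again below both MKP arrays, but MK6 replicate 1 stood far below the other two. The difference was -1.59 ± 0.48 and did not pass the test (adjusted p = 0.0781). Nop56, its partner in the particle, had a difference of -0.81 ± 0.39 (adjusted p = 0.229).

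The 3 box H/ACA genes measured had a median of -0.46, and none was called. Gar1, a core protein of the pseudouridylation particle, read 455 and 487 at MKP, 186 and 329 at MK3, 321 and 259 at MK4, and 206, 358 and 436 at MK6. Its lowest array was at MK3, and the MK6 arrays lay below both MKP arrays by a narrow margin in replicate 3 (difference -0.54 ± 0.33, adjusted p = 0.33). Nop10, another core protein, read 2325 and 2095 at MKP, 1333 and 1497 at MK3, 1514 and 1224 at MK4, and 1146, 1588 and 2452 at MK6. Here MK6 replicate 3 was the highest array of all, so the stages overlapped (-0.42 ± 0.31, adjusted p = 0.416). The dimmer probe set of Nop10 read 1327 and 1391 at MKP and 353, 725 and 806 at MK6, without overlap (-1.18 ± 0.34, adjusted p = 0.0624 in the fit of all probe sets). Nhp2, which binds the guide RNA in the same particle, also overlapped (-0.46 ± 0.42, adjusted p = 0.515).

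The 3 nucleolar phosphoproteins and chaperones had a median of -1.22 by their brightest probe sets, and 1 was called. Nolc1 codes for Nopp140, which binds snoRNPs. Its signal was 356 and 377 at MKP, 117 and 218 at MK3, 242 and 198 at MK4, and 90.3, 180.4 and 103 at MK6. All 7 later arrays were below both MKP arrays. Nolc1 fell by 1.50 on the log2 scale between MKP and MK6 (SE 0.32, adjusted p = 0.0241).

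Npm1 codes for nucleophosmin, a histone chaperone abundant in nucleoli. It read 3783 and 2968 at MKP, 2000.3 and 2011 at MK3, 2424 and 1963 at MK4, and 774, 2118 and 1784 at MK6. The MKP arrays were the highest, and MK6 replicate 1 was lower than every other array by over 2-fold while the other MK6 arrays sat at the level of MK3 and MK4 (difference -1.22 ± 0.38, adjusted p = 0.0873). Its other probe set, nearly as bright, read 2592 and 2718 at MKP and 1046, 2529 and 2824 at MK6. There MK6 replicate 3 was the highest of the 9 arrays and the stages overlapped (-0.44 ± 0.38, adjusted p = 0.497). Ncl, which codes for nucleolin, had a difference of -1.14 ± 0.41 (adjusted p = 0.123) by its brightest probe set.

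Of the 5 genes for rRNA gene transcription, 1 was called, and the median was -0.39. Ddx21 codes for an RNA helicase linked to RNA polymerase I transcription and rRNA processing. Its signal was 393 and 296 at MKP, 225 and 168 at MK3, 332 and 147 at MK4, and 83.0, 146 and 132 at MK6. MK4 replicate 1 lay between the MKP arrays, and all 3 MK6 arrays were below every other array. Ddx21 fell by 1.43 on the log2 scale between MKP and MK6 (SE 0.34, adjusted p = 0.0385).

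Ubtf, the factor that bends and marks active rRNA genes, read 418 and 396 at MKP, 381 and 419 at MK3, 312 and 297 at MK4, and 337, 292 and 232 at MK6. MKP and MK3 overlapped, and MK4 and MK6 lay below both (MK6 minus MKP -0.50 ± 0.22, adjusted p = 0.199). The polymerase's own subunits were nearest to 0 in this group: Polr1a, the largest, had -0.39 ± 0.25, Polr1b -0.19 ± 0.25 and Polr1c, shared with RNA polymerase III, -0.19 ± 0.24, with adjusted p from 0.347 to 0.657. The arrays of MKP and MK6 overlapped for Polr1b and Polr1c.

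All 12 genes of the small subunit processome and 40S maturation were below 0 between MKP and MK6, with a median of -0.49 and 1 call. Rrp9 codes for the protein that recognises the U3 snoRNA, the guide at the centre of the processome. Its signal was 187 and 117 at MKP, 55.1 and 32.3 at MK3, 89.8 and 30.9 at MK4, and 15.0, 30.5 and 16.5 at MK6. The MKP arrays were the 2 highest of the 9, and all 3 MK6 arrays were below the filter signal of 46.7. Rrp9 passed the filter through MKP and 1 array each of MK3 and MK4. It fell by 2.22 on the log2(signal + 15.2) scale (SE 0.42, adjusted p = 0.0167). The pseudocount narrows differences between signals this dim, and the true level under the filter is uncertain, so the size of the change is too.

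Emg1, a methyltransferase that modifies 18S rRNA, was the brightest of these probe sets and read 1156 and 1015 at MKP, 567 and 785 at MK3, 806 and 604 at MK4, and 238, 743 and 616 at MK6. All later arrays were below MKP, and again MK6 replicate 1 stood far below the rest (-1.15 ± 0.40, adjusted p = 0.118). Rrp12, which acts in export of both subunits, had -1.48 ± 0.50 (adjusted p = 0.109) from signals near or under the filter. It read 63.7 and 43.7 at MKP and 3.66, 25.6 and 3.91 at MK6. Only MKP replicate 1 and MK3 replicate 2 (52.1) were above the filter, so the size of this difference is uncertain. Bysl, a 40S maturation factor, had -0.76 ± 0.32, and Heatr1, which joins polymerase I transcription to early processing, -0.63 ± 0.20, with adjusted p of 0.185 and 0.0905. The remaining 7, which were the U3-bound Imp3 and Imp4, the partners Nop14 and Noc4l, the processome proteins Wdr43 and Wdr75, and Tsr1, a late 40S factor, ranged from -0.51 (Wdr75) to -0.08 (Nop14).

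In 60S assembly, 11 of 13 genes were below 0, with a median of -0.64 and 1 call. Nop16 codes for a nucleolar protein of early 60S particles. Its signal was 184 and 186 at MKP, 114 and 124 at MK3, 133 and 98.6 at MK4, and 59.7, 78.3 and 70.0 at MK6. The 3 MK6 arrays were the lowest of the 9, and the MKP arrays were the highest and nearly equal. Nop16 fell by 1.25 on the log2 scale between MKP and MK6 (SE 0.24, adjusted p = 0.0169).

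Rrp1, the brightest of the 60S probe sets, was among the 2 exceptions. It read 927 and 743 at MKP, 843 and 785 at MK3, 972 and 701 at MK4, and 785, 745 and 1223 at MK6. All stages overlapped, and the difference was 0.11 ± 0.27 (adjusted p = 0.831). Gnl2, a GTPase of 60S export, was the other exception: its signal was 151 and 155 at MKP and 256, 164 and 265 at MK6, higher on every MK6 array, without passing the test (0.50 ± 0.30, adjusted p = 0.323).

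Rrs1, a factor for loading the 5S particle, had the second largest fall in this group without passing the test (-1.21 ± 0.39, adjusted p = 0.0993). Nop2, a methyltransferase of 28S rRNA, had -0.93 ± 0.30 (adjusted p = 0.0954). The 3 proteins of the PeBoW complex, which is needed to mature the 60S rRNAs, did not move by the same amount: Wdr12 had -0.86 ± 0.39, Bop1 -0.82 ± 0.23 and Pes1 -0.28 ± 0.26, with adjusted p of 0.207, 0.0639 and 0.517. Differences between these members were not tested. Ebna1bp2 and the helicase Ddx18 had -0.72 ± 0.35 and -0.64 ± 0.25, while Gnl3 (nucleostemin), Nip7 and Rrp1b lay between -0.35 and -0.22.

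**Figure D2:**
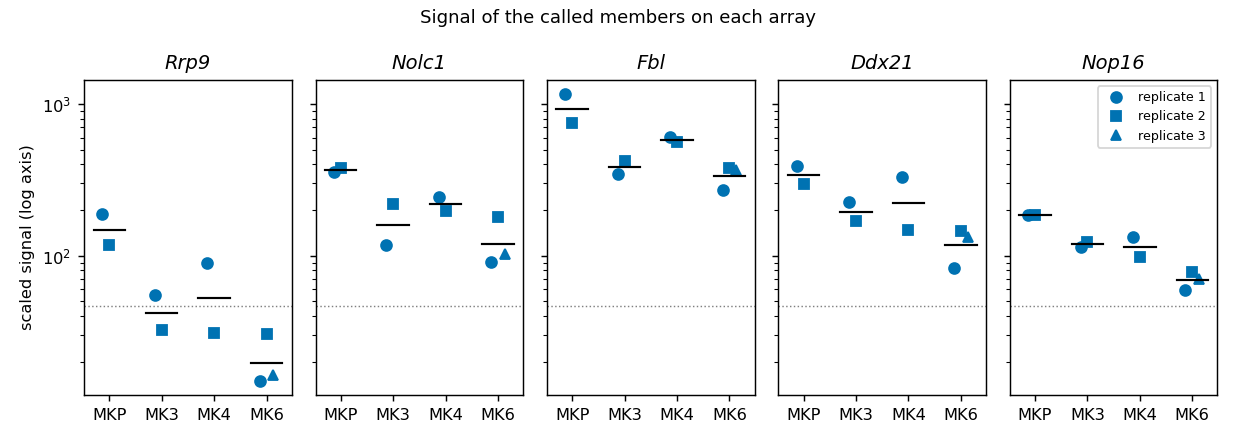
Scaled signal on a log axis for the 5 members called between MKP and MK6, on each of the 9 arrays by stage; bars are geometric means and the dotted line is the filter signal of 46.7. In each panel both MKP arrays lie above all MK6 arrays, and all 3 Rrp9 signals at MK6 lie under the dotted line.

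From MKP to MK3 no member passed the test, and all of them had a lower mean. The difference was below 0 in 39 of 39 members (54.2% of all genes), with a median of -0.59 against -0.04 for all genes. For 30 members both MK3 arrays lay below both MKP arrays (26.5% of all genes), and for 0 above them (19.4%). By limma with Benjamini-Hochberg adjustment 0 members fell (0% of all genes) and 0 rose (0.0532%), and at an unadjusted p below 0.05, 7 were lower (3.79%) and 0 higher (6.11%). The most negative were Rrp9 (-1.50 ± 0.46, adjusted p = 0.247), Fbl (-1.25 ± 0.28, 0.111) and Nolc1 (-1.12 ± 0.35, 0.256). Leaving out MK6 replicate 1, which changes only the shared spread here, made Fbl a call. The box C/D group had the most negative median at this step too (-0.97), followed by the phosphoproteins (-0.74) and the box H/ACA group (-0.64). Hepatocyte marker signals summed to 3143 to 4041 at MK3 against 598 to 633 at MKP. Of the 11 monocyte and macrophage markers 10 were above 0 at this step, with a median of 1.17 and Mrc1 called higher (adjusted p = 0.011), and all 18 DNA replication genes were below 0, with a median of -0.67 and 0 called. The part of such cells or of DNA replication in the members' difference was not tested.

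From MK3 to MK4 no member passed the test. The difference was below 0 in 9 of 39 (43.5% of all genes), with a median of 0.12 against 0.05 for all genes, and 0 members were called (0.0106% of all genes in either direction). At an unadjusted p below 0.05 there were 0 lower (2.08% of all genes) and 0 higher (1.51%). Arrays did not overlap for 4 members: Fbl and Polr1c were higher in MK4 and Ubtf and Imp4 lower (17.5% and 12.7% of all genes). The direction of this median depended on the scaling and on single arrays: it was -0.0023 with arrays set to a common median, -0.00023 without MK3 replicate 1, -0.12 without MK4 replicate 1 and 0.29 without MK4 replicate 2.

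From MK4 to MK6 the median difference was -0.11 against 0.09 for all genes, with 27 of 39 members below 0 (40.5% of all genes) and 0 called (0.0213% of all genes in either direction). At an unadjusted p below 0.05, 6 members were lower (5.54%) and 1 higher (4.92%). The 6 with no overlap downwards were Nop16, Fbl, Nolc1, Ddx21, Rrp9 and Heatr1 (9.81% of all genes), and Polr1b was higher on all MK6 arrays (14.8%). Of the role groups, the box C/D genes had a median of -0.77 at this step, the phosphoproteins -0.72 and the box H/ACA genes 0.14. Without MK6 replicate 1 the members' median was -0.02 and 20 of 39 were below 0. The 4 comparisons share the arrays of MKP, MK3, MK4 or MK6 with each other and are not independent.

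**Figure D3:**
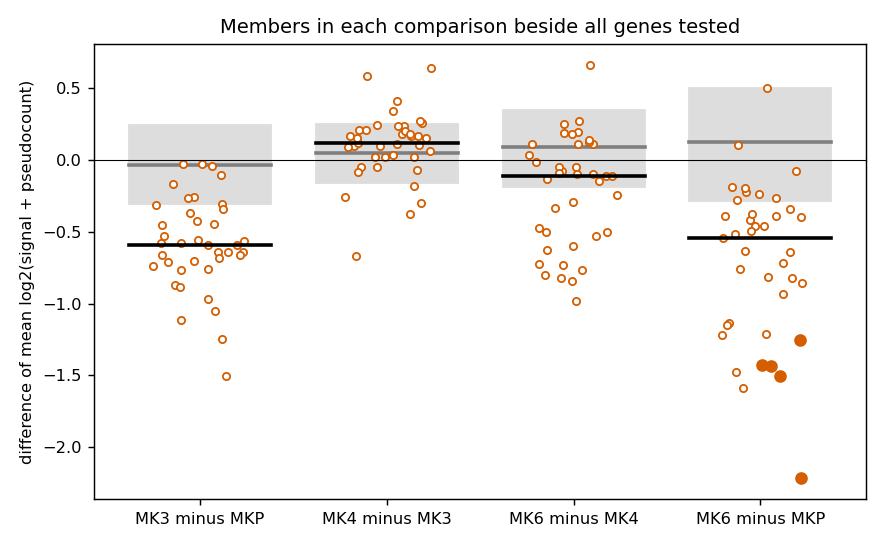
Differences in mean log2(signal + pseudocount) of the 39 members in the 3 successive steps and between MKP and MK6; open points are members, filled points have an adjusted p below 0.05, black bars are the members' medians and grey boxes and bars the middle 50% and the median of all 9394 genes. The members' medians are -0.59, 0.12, -0.11 and -0.54, and the filled points, 5 in all, occur only in the last comparison.

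Stage means put MKP highest for 37 of the 39 members (27.2% of all genes) and MK6 highest for the other two, Rrp1 and Gnl2 (44.1%). The lowest stage was MK6 for 21 members (24.7% of all genes), MK3 for 15 (29.9%) and MK4 for 3 (14.6%). Averaged over the members, the log2 level was 8.60 ± 0.06 at MKP, 8.01 ± 0.14 at MK3, 8.11 ± 0.30 at MK4 and 7.89 ± 0.33 at MK6 (SD over 2, 2, 2 and 3 arrays). MKP stood above the other stages by more than their spread, and MK3, MK4 and MK6 did not differ from each other beyond it.

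The spread within MK6 came mostly from 1 array. The members' mean log2 level was 7.51 on MK6 replicate 1 and 8.09 and 8.08 on replicates 2 and 3, and MK6 replicate 1 was the lowest of the 9 arrays for 22 of the 39 members (16.7% of all genes). The members' level on MK6 replicate 3, the array with the beta-actin ratio of 3.21, was that of replicate 2. DNA replication genes were lowest on the same array as the members, with a mean log2 level of 6.64 on MK6 replicate 1 against 8.23 and 7.93 on the others and 8.95 and 8.93 at MKP. Neutrophil markers followed another order within MK6, with mean log2 levels of 8.20, 10.34 and 7.83. Monocyte and macrophage signals summed to 32382, 13998 and 15898 on MK6 replicates 1, 2 and 3, highest where the members were lowest. They were likewise higher on the array with the lower members' mean at MK3 (34382 with 7.92, against 17292 with 8.11). The same held at MK4 (20390 with 7.90, against 14619 with 8.32). At MKP the order was the reverse, with the higher sum on the array with the higher members' mean (14687 with 8.64, against 11925 with 8.56). The beta-actin ratio and the DNA replication, neutrophil and macrophage levels differed between the same arrays or stages as the members, and their part in the members' difference was not tested. Because RNA was pooled over sorted cells, fewer cells of a type and less RNA per cell cannot be told apart.

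**Figure D4:**
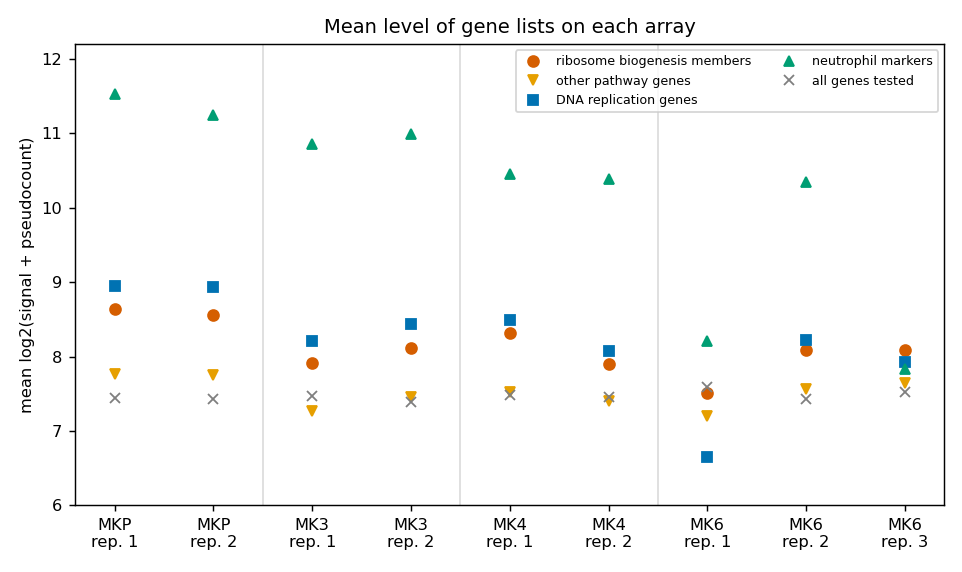
Mean log2(signal + pseudocount) of 4 gene lists and of all genes tested on each of the 9 arrays. The ribosome biogenesis members lie at 8.64 and 8.56 on the MKP arrays and at 7.51 on MK6 replicate 1, where the DNA replication genes are lowest as well, while all genes stay between 7.39 and 7.59.

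Several probe sets of 1 gene did not always tell the same story. Of the 73 member probe sets, 70 passed the filter, and in a fit of all 14516 such probe sets 11 of the 70 fell between MKP and MK6 (4.27% of all probe sets) and 0 rose (2.64%). The difference was below 0 in 61 of the 70 (44.6%). The 11 belonged to 8 genes, the 5 called above and Ncl, Rrp1 and Ubtf. Among them was a Nolc1 probe set that passed the filter only through the MKP arrays. The calls among probe sets moved with the same arrays: 0 were left without either MKP array, 4 without MK6 replicate 3, and 18 were called without MK6 replicate 2.

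Fbl and Nolc1 were the members with more than 1 kept probe set in which each was called: both probe sets of Fbl (-1.44 and -1.55) and all 3 of Nolc1 (-1.50, -1.83 and -1.48). The name of the second Fbl probe set ends in _s_at, which marks probes shared between transcripts. Rrp1 was the sharpest disagreement. Its dimmer probe set read 453 and 476 at MKP, 347 and 299 at MK3, 307 and 341 at MK4, and 161, 189 and 173 at MK6. These arrays did not overlap between MKP and any later stage, and the probe set fell by 1.34 on the log2 scale (SE 0.21, adjusted p = 0.00909 in the fit of all probe sets), whereas the brighter one gave 0.11.

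The 4 probe sets of Ncl gave -1.14, -0.91, -2.39 and 0.10, and only the third was called (adjusted p = 0.0243). Its signals were 797 and 1207 at MKP and 154, 426 and 76.8 at MK6, so that it was lowest on MK6 replicate 3, unlike the brightest Ncl probe set, which was lowest on replicate 1 (649, 2006 and 1560). The probe set of Ncl near 0 has a name ending in _x_at, which marks probes that can match other transcripts. Ubtf was called by its dimmer probe set (-1.38 ± 0.35, adjusted p = 0.0409), which was under the filter on all MK6 arrays, and Ddx21's second probe set had -0.79 ± 0.47 (adjusted p = 0.314). Of the 23 genes with at least 2 kept probe sets, 6 had both signs: Ebna1bp2, Ncl, Nip7, Noc4l, Rrp1 and Wdr75. All 3 probe sets of Gnl2 were above 0 (0.31 to 0.70), and none was called.

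**Figure D5:**
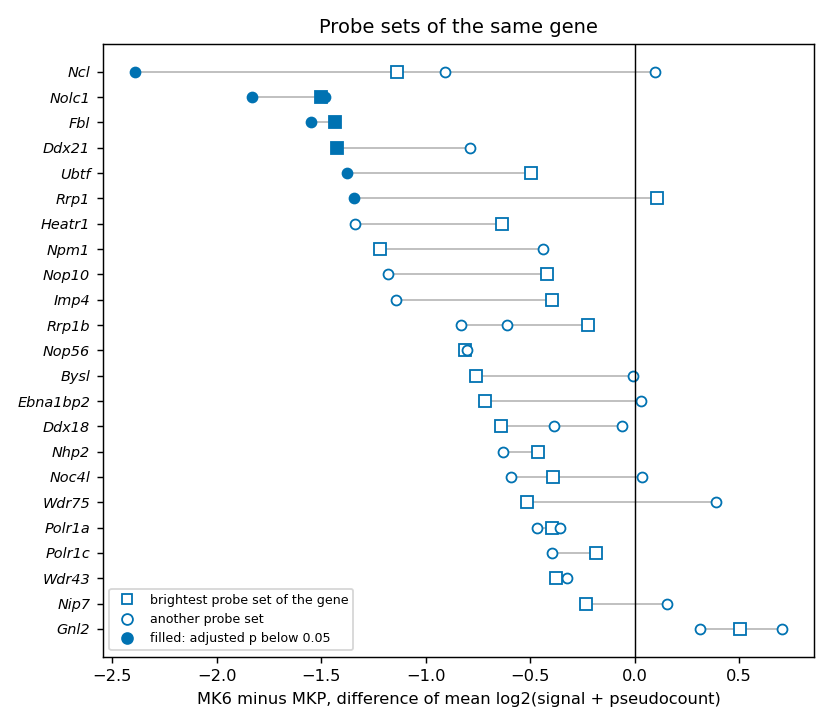
Difference in mean log2(signal + pseudocount) between MK6 and MKP for every kept probe set of the 23 members with 2 or more; squares are the brightest probe set of a gene, circles the others, and filled symbols have an adjusted p below 0.05 in the fit of all probe sets. The probe sets of Ncl span -2.39 to 0.10 and those of Rrp1 -1.34 to 0.11, while the 3 filled symbols of Nolc1 lie between -1.83 and -1.48. The Nolc1 symbol at -1.83 is a probe set that passed the filter only through the MKP arrays.

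Other genes of the pathway, came from a list of 122 that holds none of the members. Of the 100 that were tested, 7 fell between MKP and MK6 (2.94% of all genes) and 0 rose (2.76%), 68 were below 0 (40.8%), and the median was -0.26 against 0.13 for all genes. The 7 were Nol12, Exosc5 (an RNA exosome subunit), Tbl3 (a processome protein), Tcof1 (treacle, a cofactor of rRNA gene transcription), Rrp15, Eif6 (which keeps free 60S subunits from joining 40S) and Rsl24d1 (a 60S assembly protein), with log2 differences from -1.69 (Nol12, adjusted p = 0.0201) to -0.91 (Rsl24d1, 0.0369). The RNA exosome genes had a median of -0.55 (10 of 12 below 0, 1 fell), other 60S factors -0.40 (28 of 37 below 0, 4 fell) and other polymerase I factors -0.23 (7 of 10, 1 fell). The 13 tested genes of late 40S maturation had a median of 0.10, with 5 below 0 and 0 called. Between MKP and MK3, 88 of the 100 were below 0 (54.2% of all genes), with a median of -0.42 against -0.04 and 0 called.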

How the data were processed

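RNA was extracted with Trizol, primed with oligo-dT, labelled with biotin and hybridised to Affymetrix MOE430A mouse arrays, 1 per sample, per the labels' protocols. The deposited intensity of each probe set is a MAS5 signal, per the submitters' processing notes; its version and settings were not given in the sources used here. Since the 2% trimmed means of the 9 arrays ran from 102 to 221, all were scaled to their mean, 161. Values became log2(scaled signal + 15.2), where 15.2, the pseudocount, is the 20th percentile after scaling. A probe set was kept if 2 or more arrays exceeded 46.7, the 40th percentile, and a gene was represented by its kept probe set with the highest mean. All 39 members measured passed. Of 22690 probe sets, 20380 name 1 gene in the array's annotation, 691 several, 1555 none, and 64 are controls.

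limma 3.58.1 in R 4.3.3 fitted 1 mean per stage over all 9 arrays with 5 residual degrees of freedom (lmFit, eBayes with an intensity trend), and p-values were adjusted by Benjamini-Hochberg over 9394 genes, or over 14516 probe sets; a call is an adjusted p below 0.05. The script was tested on simulated data. The number of arrays limits the precision. The members, role groups and lists were chosen with earlier results of these data known. Values on every array are given for each member called and, in each role group, for the member with the largest difference and the brightest one; the Gnl2 signals and the further probe sets of Ncl, Rrp1, Npm1 and Nop10 were added after their values were seen. Alternatives covered pseudocount, filter, scaling, choice of probe set, fit, array weights, single arrays and the beta-actin ratio as a covariate.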

Additional observations from a re-analysis of the deposited data

How the results depend on the processing

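Each result was recomputed under up to 24 alternatives. The one that leaves out MK6 replicates 2 and 3 was meant for replicates 1 and 3, the 2 with the higher beta-actin ratios. By the Gapdh ratio replicate 1 (0.996) was below replicate 2 (1.13), and replicate 3 was at 3.27. As run, this alternative keeps only replicate 1, on which the members were lowest. Leaving out 2 and 3, or 1 and 3, gives MK6 a single array, assumed to vary like the other stages. Fbl, Nop16 and Rrp9 were called between MKP and MK6 in 19 of 24, Nolc1 in 18 and Ddx21 in 12, always in the lower direction. The 5 calls became 2 with unscaled values, 8 with the most variable probe set of each gene, 16 with array weights, 20 with MK6 replicates 2 and 3 left out, and 0 once the beta-actin ratio entered as covariate (0 of all genes called) or, added after seeing the data, with MK6 replicates 1 and 3 left out; leaving out single arrays gave 0 to 12. The 11 probe set calls became 7 unscaled, 24 with weights, 32 without MK6 replicates 2 and 3, 0 with the covariate and 0 without replicates 1 and 3, and 0 to 18 over single arrays. Between MKP and MK3, 1 member was called with weights, and 0 to 1 over single arrays. Between MK4 and MK6, 5 were called without MK6 replicates 2 and 3. The F test's 1 call became 0 with no filter, quantile normalization, a common median, no intensity trend, the covariate or without MK6 replicates 1 and 3, 2 with the mean of a gene's probe sets, 8 without MK6 replicates 2 and 3, 11 with weights, and 0 to 2 over single arrays. The member called by the F test also changed. It was Rrp9 with unscaled values and Rrp1 with the most variable probe set. Nolc1 and Nop16 were called with the mean of a gene's probe sets, and Fbl was called in none of these alternatives. The members' median of -0.54 moved to -0.88 unscaled, -0.81 with the most variable probe set, -0.98 without MK6 replicates 2 and 3 and -0.87 with the covariate. This median stayed below that of all genes in every alternative. Unscaled values moved the median of all genes to -0.20. Rrp1 reversed to -1.34 with its most variable probe set. The causes were not tested. The choice among probe sets could not apply to results on single probe sets, and the F test was not run on the stages compared alone. No paired analysis was possible because replicate numbers appear in the titles of MK6 only.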
